A study of Mus musculus with 3 samples.

Results

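The collagen chain genes of mouse are the genes whose symbol is Col, a type number, the letter a and a chain number, and 44 of the 49120 genes with a symbol in the files carry such a name. They were described in 3 RNA sequencing libraries of sorted back-skin epidermis from 7-week-old wild-type C57BL/6 mice, whose hair follicles were in the second telogen, a resting stage. Epidermal cells freed with thermolysin (0.25 mg/ml, 1 hour) were sorted by antibodies against CD34 and the integrin Itga6. N denotes the sorted CD34- fraction, called non-stem cells in the labels. B is the CD34+ fraction high in Itga6, labelled as stem cells of the basal bulge, and S the CD34+ fraction low in Itga6, labelled as those of the suprabasal bulge. The bulge houses the stem cells of the hair follicle. Each population was a pool of RNA from 4 mice, amplified before library preparation, so there was 1 library per group. There was therefore no test and no replicate check, and every difference below is a difference between these libraries. Levels are given as scaled FPKM, that is, the authors' FPKM (fragments per kilobase of transcript, normalised to the mapped fragments) divided by 1 factor per library.

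Collagens are extracellular proteins in which 3 chains wind into a triple helix, as 3 copies of 1 chain or as a mix of the products of several genes. Fibrillar collagens (types I, III and V) make the fibers of the dermis. In the skin basement membrane, type IV forms the network, type XVII spans the membrane of basal keratinocytes in hemidesmosomes, and type VII forms the anchoring fibrils below. Hair follicle stem cells of the basal bulge rest on such a basement membrane. Type XVII collagen is known to be needed for the maintenance of hair follicle stem cells.

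Cd34 followed its gate, and most markers of dermal cells were low. Depth was about 35.4 M fragments for N, 32.7 M for B and 31.3 M for S (M for mega). Cd34 was at 0.201 scaled FPKM in N against 144 in B and 215 in S, and Itga6 at 115, 49.3 and 33.1. Of 14 fibroblast markers that are not collagens, 1 reached 1 scaled FPKM in N, 2 did in B and 2 in S. These were Gsn, an actin-severing protein gene that keratinocytes also express (70.7 in N, 91.3 in B and 167 in S), and Vim, the intermediate filament of mesenchymal cells (0.494, 1.74 and 1.50). The fibroblast list summed to 71.8 in N, 93.9 in B and 169.9 in S, nearly all of it Gsn. The receptor gene Pdgfra was at 0.00623 in N against 0.0773 in B and 0.442 in S, and the proteoglycan gene Dcn at 0.440, 0.123 and 0.386. The fibroblast genes Dpt, Mfap5, Twist2, Prrx1 and Mfap4 were listed at 0 in both N and S, and at most 0.142 in B. Of 6 endothelial markers, 0 reached 1 in any library, and their summed level was 0.240 in N against 0.534 in B and 0.503 in S. The 7 smooth muscle and pericyte markers summed to 1.43, 5.88 and 6.15, of which Cspg4 made 0.648, 5.38 and 5.47, and Des was listed at 0 in N and B. The 7 dermal papilla markers summed to 5.68, 3.03 and 3.44. Rspo3 made most of the sum in N (5.52, 1.04 and 0.0459 in N, B and S). Hhip made most of it in S (0.0582, 1.03 and 3.15). Crabp1 was at 0.0383, 0.802 and 0.210, and Sox2 was listed at 0 in N and S. The 8 Schwann cell and nerve markers summed to 16.1 in N, 8.36 in B and 8.66 in S, led by Erbb3. Of 6 melanocyte markers, the transcription factor gene Mitf alone reached 1 (2.08, 16.4 and 34.4), and Dct, an enzyme of pigment synthesis, was listed at 0 in N and was at 0.513 in B and 0.475 in S. The 7 leukocyte markers summed to 15.9, 6.60 and 12.4. In libraries made from pools of cells, a smaller share of cells of a type and less RNA per cell cannot be told apart.

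Of the 44 collagen chain genes, 17 had at least 1 scaled FPKM in at least 1 library, and 27 stayed below, at 0.619 or less. Among the 17, the highest level was in B for 8, in S for 6 and in N for 3. The lowest level was in N for 10, in S for 5 and in B for 2. These counts rest on the scaling: with the same upper quartile in each library B was highest for 10 and S for 4, and with the same total B was highest for 12 and S for 1. The matching counts over all genes were not taken. Col17a1 was far above the rest in each library. The second most abundant chain differed, being Col7a1 in N and Col6a1 in B and S.

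**Figure D1:**
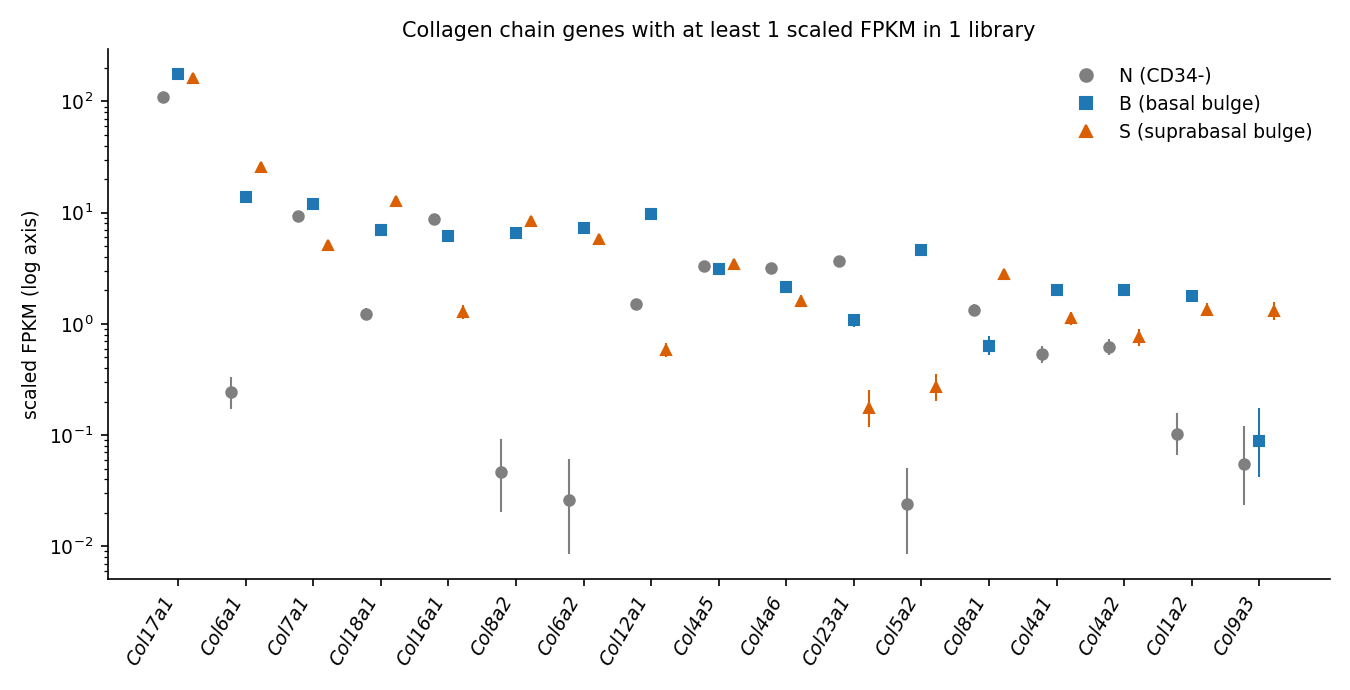
Level of the 17 collagen chain genes with at least 1 scaled FPKM in 1 library, in the CD34-negative (N, circles), basal bulge (B, squares) and suprabasal bulge (S, triangles) library, on a log axis. Each point is 1 library and bars are the 95% counting interval from the approximate number of fragments; Col17a1 lies above 100 in all 3 libraries, while Col6a1, Col6a2, Col8a2 and Col1a2 lie below 0.3 in N and above 1 in B and S.

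A gene was called higher or lower when the log2 ratio of scaled FPKM plus 1 was at least 1 in size, which is 2-fold on that scale, among genes with a mean of at least 1 over the libraries. Of the collagen chain genes, 16 passed that filter. Some passed only because they were high in 1 or 2 libraries and so had to differ, so the counts describe these genes and support nothing further. In B against N, 7 of the 16 were higher (Col1a2, Col5a2, Col6a1, Col6a2, Col8a2, Col12a1 and Col18a1) and 1 was lower (Col23a1), where 7.27% of all 11575 genes past the filter were higher and 7.10% lower. The median log2 ratio was 0.94 for the 16 genes and -0.04 for all. In S against N, 5 were higher (Col1a2, Col6a1, Col6a2, Col8a2 and Col18a1) and 2 lower (Col16a1 and Col23a1), against 9.56% and 10.9% of all genes, with medians of 0.39 and 0.02. In S against B, 1 was higher (Col8a1) and 4 were lower (Col5a2, Col7a1, Col12a1 and Col16a1), against 3.89% and 5.93% of all genes, with medians of -0.28 and 0.06. The 2 comparisons with N share that library. A pseudocount of 5 ended the calls of Col1a2, Col5a2 and Col23a1 in each of their comparisons, of Col18a1 in B against N, and of Col7a1, Col8a1 and Col16a1 in S against B. The split of all genes moved with the scaling. In B against N it was 6.19% higher and 9.46% lower for values as deposited, 9.85% and 5.14% with the same upper quartile and 10.6% and 6.60% with the same total. In S against N it was 7.39% and 14.5% as deposited and 1.84% and 71.5% with the same total, and in S against B 2.35% and 9.31% with the same upper quartile and 0.675% and 84.4% with the same total.

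**Figure D2:**
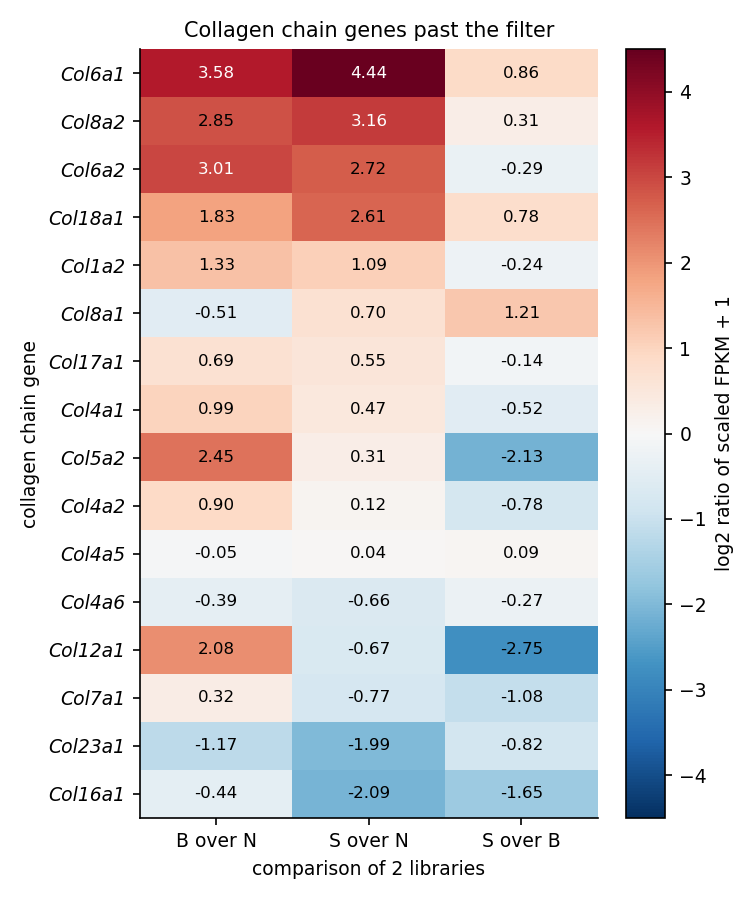
Log2 ratio of scaled FPKM plus 1 for the 16 collagen chain genes past the filter, in the 3 comparisons (columns), with genes ordered by the ratio of S over N; red is higher in the first-named library and blue lower. Col6a1 has the ratio of 4.44 at the top of the S over N column and Col16a1 the ratio of -2.09 at its foot, and Col12a1 is at 2.08 for B over N and -2.75 for S over B.

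Genes of the attachment of keratinocytes to the basement membrane were present in all libraries. Col17a1 (ENSMUSG00000025064, chromosome 19, 47646344 to 47692094, mm10) encodes the transmembrane collagen of hemidesmosomes. Its level was 109 in N against 177 in B and 161 in S, 1.62-fold higher in B than in N and 1.10-fold higher in B than in S. It ranked 323rd of the 11575 genes in N, 192nd in B and 230th in S by the order of levels within each library. It stayed within 2-fold in the 3 comparisons, but with the same total in each library its log2 ratio was -1.32 for S over N and -2.20 for S over B, so that S was lowest. Col7a1 (chromosome 9, 108953586 to 108984875), the gene of the anchoring fibril, was at 9.36 in N, at 11.9 in B and at 5.09 in S. S was lowest, 2.34-fold below B, and N lay between them. A microRNA gene, Mir711, shares 36 exon bases with it.

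Type IV collagen is made from 6 genes that lie in pairs, each pair head to head with the starts close together. Col4a1 and Col4a2 encode the common network of most basement membranes, and Col4a5 and Col4a6 chains of the network of skin. Col4a5 (chromosome X, 141475385 to 141689234) was at 3.29 in N against 3.15 in B and 3.42 in S, and the counting intervals of its 3 ratios spanned 1. Its neighbor Col4a6 was at 3.15 in N, at 2.16 in B and at 1.62 in S, so that the ratio of Col4a5 to Col4a6 was 1.04, 1.45 and 2.11. Col4a1 (chromosome 8, 11198423 to 11312826) was at 0.533 in N against 2.04 in B and 1.12 in S. Col4a2 was at 0.622, 2.03 and 0.759, and the ratio of both chains was 0.857, 1.00 and 1.48. B was the highest library for both, 3.82-fold above N for Col4a1 and 3.26-fold for Col4a2, yet their log2 ratios of 0.99 and 0.90 did not reach the limit for a call because the pseudocount weighs on low levels. With a pseudocount of 0.1, and with each library scaled to the same upper quartile, both passed it. The first exons of these 2 genes share 22 bases on opposite strands. The other pair, Col4a3 and Col4a4, known from the kidney glomerulus, was below 1 throughout, at 0.223, 0.619 and 0.0434 and at 0.0270, 0.488 and 0.0599 in N, B and S. Again B was highest, though an RNA on the opposite strand shares 563 exon bases with Col4a3.

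Col18a1 (chromosome 10, 77052178 to 77166548) encodes a basement membrane collagen that carries heparan sulfate chains and is the precursor of endostatin. It was at 1.24 in N, at 6.94 in B and at 12.6 in S. Both bulge libraries were above N, S by 10.2-fold and B by 5.61-fold, and S was 1.82-fold above B, an order that reversed with the same total in each library. The other multiplexin, Col15a1, was listed at 0 in N and B and was at 0.0627 in S.

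Both main type VI collagen genes were far higher in the bulge libraries than in N. This collagen forms beaded filaments that lie close to basement membranes, from chains of Col6a1, Col6a2 and 1 of the other type VI genes. Col6a1 (ENSMUSG00000001119, chromosome 10, 76708792 to 76726168) was at 0.242 in N against 13.9 in B and 25.9 in S. That was 107-fold higher in S than in N (95% counting interval 77.9 to 150) and 57.3-fold higher in B (41.6 to 80.5), with about 39 fragments in N. Col6a2 (chromosome 10, 76595762 to 76623630) was at 0.0258 in N, at 7.28 in B and at 5.77 in S. With only about 5 fragments in N, its ratio of B to N was 282 with a counting interval of 120 to 864. The 2 genes differed in the order of the bulge libraries, Col6a1 being 1.87-fold higher in S than in B (lower in S with the same total in each library), while Col6a2 was 1.26-fold higher in B. Of the 14 fibroblast markers, 6 were above N in both bulge libraries, among them Pdgfra and Vim, and 2 were below it in both, Dcn and Lox. The counts above and below N were 4 and 2 of the 7 smooth muscle and pericyte markers and 4 and 2 of the 7 dermal papilla markers. They were 5 and 0 of the 6 endothelial markers and 4 and 1 of the 6 melanocyte markers. Other lists leaned the other way, with 1 and 3 of the 8 Schwann cell and nerve markers and 3 and 4 of the 7 leukocyte markers. These counts take any difference in level, and the matching shares of all genes were not taken. Many of these markers lay near 0, the endothelial ones at 0.257 or less. Their part in the result was not tested.

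Type VIII collagen, a short chain collagen known from the corneal and vascular basement membrane, differed by chain. Col8a2 (chromosome 4, 126286793 to 126314330) was at 0.0469 in N against 6.56 in B and 8.37 in S. It was 178-fold higher in S than in N (89.7 to 412) and 140-fold higher in B (70.3 to 323), on about 8 fragments in N. Col8a1 (chromosome 16, 57624258 to 57754737) was at 1.34 in N, at 0.639 in B and at 2.79 in S, which made it the only one of the 16 called higher in S than in B, at 4.37-fold (3.50 to 5.45). That call ended with the same upper quartile or the same total in each library and with a pseudocount of 5. Thus Col8a1 was above Col8a2 in N and below it in both bulge libraries.

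The sequences before the starts of 4 of the 5 genes that were higher in both bulge libraries, and of Col23a1, which was lower in both, are shown so that the shared and differing letters can be seen beside these levels. They come from the RefSeq promoter table (GRCm38.p6), run 5′ to 3′ on the gene's strand and end at the start of the gene or at the first annotated exon base. Where that table holds several starts of a gene, the most upstream was taken. Levels per gene do not tell which start was in use. Col1a2, the other gene higher in both, is not shown because its window lies inside the annotated gene, with 127 bases in annotated exons. Capitals mark matches of GGGCGG or CCAAT on either strand.
Col6a1, chr10:76726169-76726294, minus strand: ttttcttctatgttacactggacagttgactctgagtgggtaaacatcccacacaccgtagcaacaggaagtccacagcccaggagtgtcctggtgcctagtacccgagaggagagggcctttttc
Col6a2, chr10:76623631-76623880, minus strand: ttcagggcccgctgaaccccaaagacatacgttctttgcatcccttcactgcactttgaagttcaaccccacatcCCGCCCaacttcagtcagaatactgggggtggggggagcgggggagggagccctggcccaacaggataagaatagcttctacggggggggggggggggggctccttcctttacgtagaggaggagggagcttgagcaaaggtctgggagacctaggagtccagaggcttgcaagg
Col8a2, chr4:126286544-126286792, plus strand: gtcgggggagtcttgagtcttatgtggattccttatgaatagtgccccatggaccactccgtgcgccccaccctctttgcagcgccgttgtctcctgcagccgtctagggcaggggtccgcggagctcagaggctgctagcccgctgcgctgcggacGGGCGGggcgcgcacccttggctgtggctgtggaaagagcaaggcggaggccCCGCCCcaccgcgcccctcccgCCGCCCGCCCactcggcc
Col18a1, chr10:77166549-77166780, minus strand: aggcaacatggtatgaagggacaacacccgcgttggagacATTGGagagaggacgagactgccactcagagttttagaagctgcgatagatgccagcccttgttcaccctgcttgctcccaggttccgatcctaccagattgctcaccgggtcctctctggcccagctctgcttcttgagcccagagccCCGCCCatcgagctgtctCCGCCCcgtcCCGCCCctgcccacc
Col23a1, chr11:51289670-51289919, plus strand: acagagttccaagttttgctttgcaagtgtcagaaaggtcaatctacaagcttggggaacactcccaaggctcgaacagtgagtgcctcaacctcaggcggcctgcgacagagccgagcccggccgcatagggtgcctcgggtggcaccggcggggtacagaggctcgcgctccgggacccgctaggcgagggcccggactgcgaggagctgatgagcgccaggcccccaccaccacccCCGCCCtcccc

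Within 250 bases of the start, GGGCGG (the GC box) was found before Col8a2 at 4 positions (some overlapping), before Col18a1 at 3, and before Col6a2 and Col23a1 at 1. CCAAT was found before Col18a1. Col1a2 had 2 GGGCGG matches and 1 of CCAAT. The 6 motifs searched on both strands were the TATA box as TATAAA, the CCAAT box, the GC box as GGGCGG, the AP-1 site as TGANTCA, a homeodomain core as TAATTA and a TCF site as CTTTGAT. The GC box stood before 21 of the 35 collagen chain genes in the table and before 33.0% of 27025 promoters. Matches of CCAAT stood before 12 of the 35 and 34.5% of all promoters, and of TATAAA before 5 and 13.0%. TGANTCA stood before 1 of the 35, Col6a1, at 90 bases from the RefSeq start in a part annotated as exon and so not shown, and before 6.85% of all. TAATTA stood before 2 (4.91% of all) and CTTTGAT before 1 (3.26% of all). Col1a2, Col6a1, Col6a2, Col8a2 and Col18a1 thus had no motif of the 6 in common in this window. The window was rich in G and C before the collagen chain genes, with a median of 59.2% against 52.0% for all promoters.

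Col12a1 and Col5a2 were highest in the basal bulge library. Col12a1 (chromosome 9, 79598991 to 79718831) encodes a collagen that sits on the surface of fibrils. It was at 1.51 in N against 9.65 in B and 0.581 in S, 6.38-fold higher in B than in N and 16.6-fold higher in B than in S. Col5a2 (chromosome 1, 45374321 to 45503282) encodes a chain of type V, which sets the diameter of collagen I fibrils. It was at 0.0239 in N, at 4.59 in B and at 0.273 in S. B was 16.8-fold above S (counting interval 12.8 to 22.8) and, on about 6 fragments in N, 192-fold above N (90.8 to 542). Both genes were therefore low in 2 of the 3 libraries. Sparc, a collagen-binding matrix protein gene, and Aspn, a small proteoglycan gene that binds collagen, were also highest in B, at 112 and 22.0, with 6.59 and 1.73 in N and 3.32 and 0.510 in S. Of the 14 fibroblast markers, 8 were highest in B, 4 in S and 2 in N by any difference, without matching counts over all genes. Those highest in B included Prrx1 (0.131) and Mfap5 (0.142), while Pdgfra was highest in S and Dcn in N. Their part in the result was not tested.

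Col16a1 and Col23a1 were highest in the CD34-negative library. Col16a1 (chromosome 4, 130047840 to 130099283), a fibril-associated collagen found near the dermo-epidermal junction, was at 8.74 in N against 6.20 in B and 1.29 in S. S was the outlying library, 6.76-fold below N and 4.80-fold below B. Col23a1 (chromosome 11, 51289920 to 51583918), a transmembrane collagen of epithelial cells, was at 3.67 in N, at 1.07 in B and at 0.175 in S. It was 21.0-fold higher in N than in S (14.3 to 31.1) and 3.42-fold higher in N than in B. Of the 4 basal keratinocyte markers, Krt14 (588, 277 and 12.7 in N, B and S) and Itga6 were likewise highest in N and lowest in S, while Krt5 was highest in S (818, 810 and 959) and Itgb4 in B (15.0, 23.7 and 22.1). Of the 4 differentiating keratinocyte markers, 3 were highest in N, namely Krt1 (258, 140 and 13.3), Krt10 (372, 233 and 55.9) and Ivl (3.51, 1.84 and 1.95). Lor was highest in S (0.954, 1.72 and 1.81). The part of both lists in the result was not tested.

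Col1a2 and Col9a3 completed the 17. Col1a2 (chromosome 6, 4504814 to 4541544), a chain of the main fibrillar collagen of dermis, was at 0.103 in N against 1.77 in B and 1.34 in S. Its ratio of S to N, 1.09 on the log2 scale, no longer reached the limit for a call with libraries scaled to the same upper quartile or the same total, or with a pseudocount of 5. Col9a3 (chromosome 2, 180597790 to 180622189), a chain of cartilage collagen IX, was at 0.0547 in N, at 0.0891 in B and at 1.31 in S, and its mean was too low for the filter. That level in S rested on about 115 fragments. Its exons share 234 bases with Tcfl5 on the opposite strand.

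Chains that assemble with each other were often at unequal levels. Type I collagen normally has more of the Col1a1 than of the Col1a2 chain, yet Col1a1 was at 0.0127 in N against 0.0931 in B and 0.115 in S, so that Col1a2 was 19.0-fold higher than Col1a1 in B and 11.7-fold in S. For type V, Col5a1 was at 0.0920, 0.297 and 0.0201, and Col5a2 was 15.5-fold higher than it in B. Col5a3 was listed at 0 in B and S. Col6a3, the usual partner of both type VI chains, was at 0.00602 in N, at 0.0446 in B and at 0.00749 in S, on about 2, 14 and 2 fragments. Col6a1 was 311-fold above Col6a3 in B, and its level in S was 25.9 against those 2 fragments. The genes of the chains that can stand in for it were below 0.1. Col6a4 was listed at 0 in B and S, Col6a5 was at 0.0958 in B with 0.00420 in S, and Col6a6 at 0.00692 and 0.0154. Col6a1 and Col6a2 were closer, with ratios of 1.90 in B and 4.50 in S. Col3a1, the fibrillar collagen III gene whose product is made of 1 chain, was listed at 0 in N and was at 0.0331 in B and 0.186 in S.

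**Figure D3:**
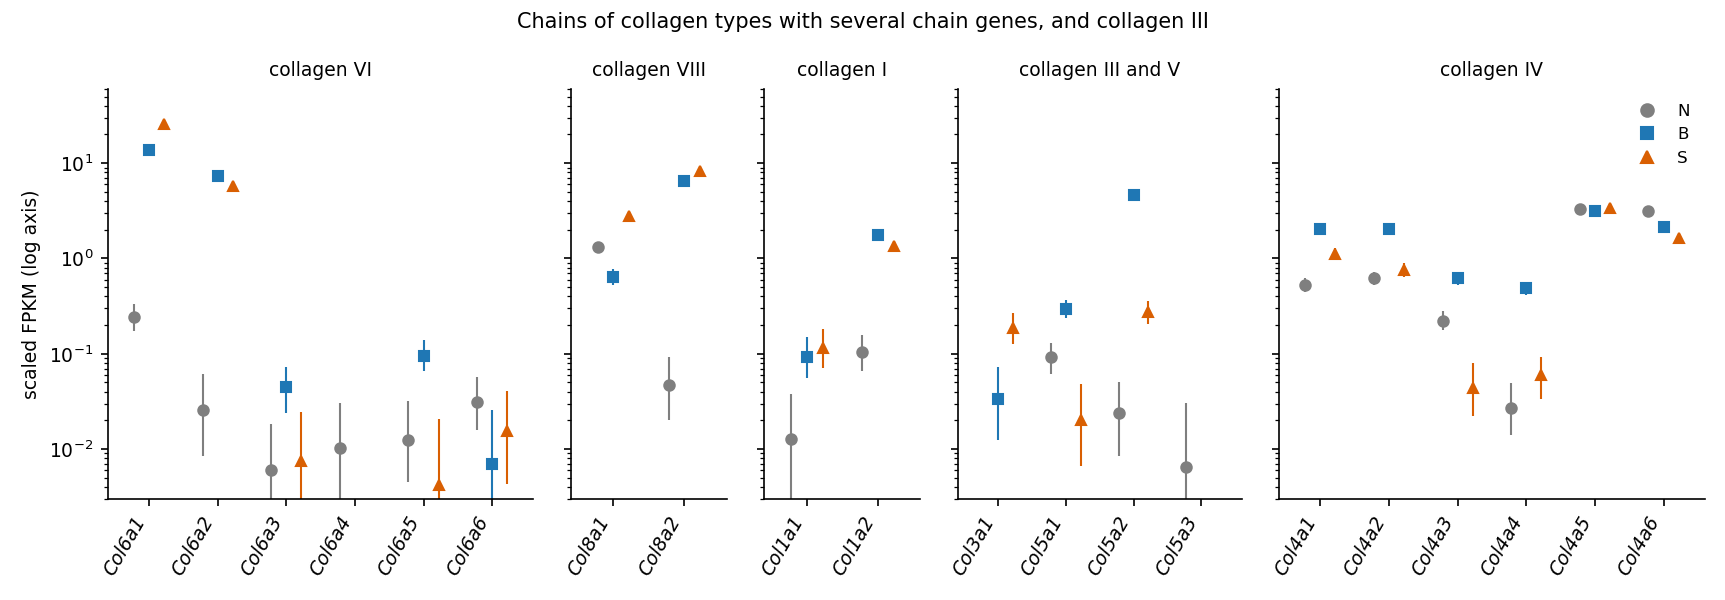
Level in scaled FPKM (log axis) of each chain gene of collagens VI, VIII, I, V and IV, and of Col3a1, in N (circles), B (squares) and S (triangles), with 95% counting intervals that are cut where they leave the axis; genes listed at 0 have no point. Col6a1 and Col6a2 lie between 5.77 and 25.9 in the bulge libraries, where Col6a3 lies at 0.0446 and 0.00749.

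The share of each chain in the collagen transcripts of a library does not depend on the scaling between libraries. Col17a1 held 75.7% of the summed FPKM of the 44 genes in N against 68.0% in B and 68.5% in S. The sum of the other chains does depend on it, being 35.2 scaled FPKM in N, 83.5 in B and 73.9 in S, but 52.1, 141 and 29.5 with the same total in each library. Within that sum, the beaded filament class (type VI) held 0.933% in N against 25.5% in B and 42.9% in S. The fibril-associated class, to which Col12a1 and Col16a1 belong, held 30.1% in N and 20.2% in B but 4.54% in S. Anchoring fibril collagen held 26.6% in N, 14.3% in B and 6.89% in S, and the type IV network 22.3%, 12.6% and 9.50%. The multiplexins held 3.52%, 8.32% and 17.2%, and the short chain class 4.21%, 9.05% and 15.5%. Fibrillar collagens held 1.05% in N, 8.63% in B and 2.89% in S. By share, N was thus led by fibril-associated, anchoring and type IV chains, and S by type VI and the multiplexin Col18a1. B lay between them in share for 6 of these 7 classes. For the fibril-associated, anchoring and type IV classes, the lower share in B than in N went with a higher level. The type IV class summed to 7.85 scaled FPKM in N, 10.49 in B and 7.03 in S. Anchoring fibril collagen was at 9.36, 11.9 and 5.09, and the fibril-associated class at 10.575, 16.89 and 3.36.

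**Figure D4:**
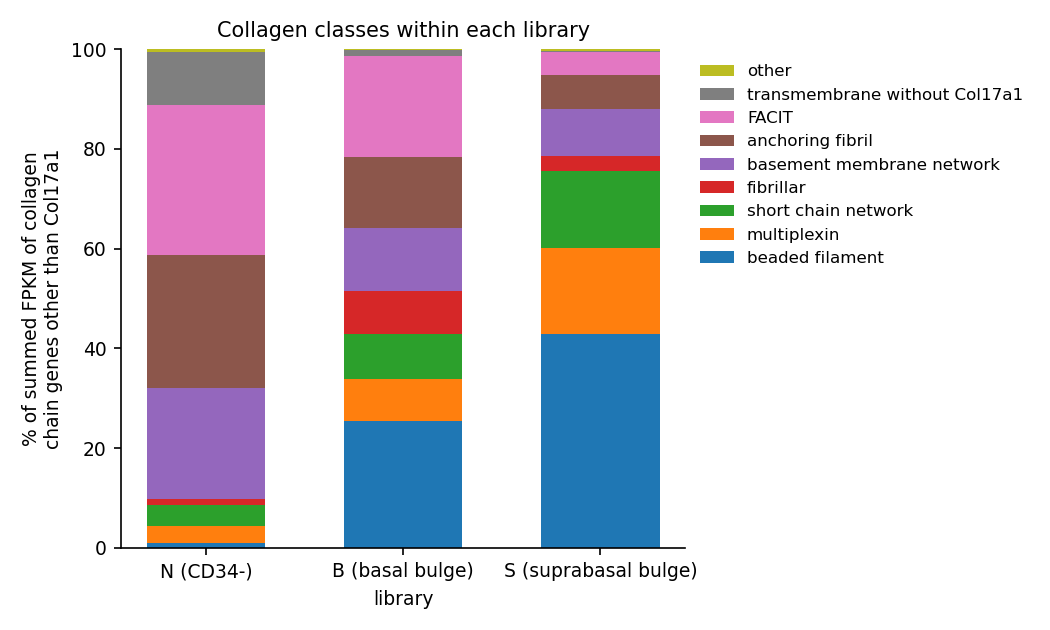
Share of each collagen class in the summed FPKM of all collagen chain genes other than Col17a1 (y axis, percent), for the N, B and S library (bars). The beaded filament class at the foot of the bars takes 0.933%, 25.5% and 42.9%, and the fibril-associated class (FACIT) 30.1%, 20.2% and 4.54%.

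The 27 genes below 1 scaled FPKM in every library were Col1a1, Col2a1, Col3a1, Col4a3, Col4a4, Col5a1, Col5a3, Col6a3, Col6a4, Col6a5, Col6a6, Col9a1, Col9a2, Col10a1, Col11a1, Col11a2, Col13a1, Col14a1, Col15a1, Col19a1, Col20a1, Col22a1, Col24a1, Col25a1, Col26a1, Col27a1 and Col28a1. Of all 44 genes, 8 were listed at 0 in N and 4 in B, with 9 in S. Among all 49120 genes with a symbol, 23408 were above 0 in N, 25913 in B and 21978 in S. B thus likewise had the fewest zeros over all genes, and S the most. Col9a1, the partner of Col9a3 in collagen IX, was at 0.418 in B and listed at 0 in N and S. Col14a1, a fibril-associated collagen of dermis, was listed at 0 in N and was at 0.277 in B and 0.0624 in S. The cartilage gene Col2a1 and the hypertrophic cartilage gene Col10a1 were at most 0.0508 and 0.352. B had the highest level for 17 of the 27, N for 5 and S for 5, with no matching counts taken over all genes. These levels rest on at most 75 fragments in N, 170 in B and 30 in S.

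Of 36 genes for enzymes and chaperones that make collagen, 17 passed the filter. In B against N, 5 were higher and 1 lower, where 7.27% and 7.10% of all genes were, with a median log2 ratio of 0.18 beside -0.04 for all genes. In S against N, 1 was higher and 2 lower (9.56% and 10.9% of all genes; median -0.14 beside 0.02). In S against B, 0 were higher and 2 lower (3.89% and 5.93% of all genes; median -0.37 beside 0.06). Serpinh1, the collagen chaperone HSP47, was at 6.03 in N, at 20.9 in B and at 16.2 in S, which made both bulge libraries higher than N. P3h2, a prolyl 3-hydroxylase known for acting on type IV collagen, was at 18.5 in N against 22.5 in B and 2.96 in S, with S 7.61-fold below B. The subunit gene P4hb of prolyl 4-hydroxylase was at 51.6, 48.3 and 42.6. The others called were P3h4, Plod1, Tll1 and Pcolce2 (higher in B than in N, and Pcolce2 also higher in B than in S) and Adamts14 (lower in both bulge libraries), named here after their values were seen. Of these, Plod1 lay right at the limit for a call, with a log2 ratio of 1.00 for B over N (1.33 in N and 3.65 in B). Pcolce2, an enhancer of procollagen cleavage, was listed at 0 in N and was at 8.54 in B and 0.265 in S. Adamts14, a procollagen peptidase, was at 3.39 in N, at 0.843 in B and at 0.0857 in S. Lox, the enzyme that crosslinks fibrillar collagen, was at 0.0511 in N and listed at 0 in B and S.

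Of 11 collagen receptor genes, 4 passed the filter. Of these, 0 were called in B against N, where 7.27% of all genes were higher and 7.10% lower (median 0.41 beside -0.04). In S against N, 1 was higher and 0 lower, against 9.56% and 10.9% (median -0.59 beside 0.02). In S against B, 0 were higher and 1 lower, against 3.89% and 5.93% (median -0.57 beside 0.06). With 4 genes, counts of 0 or 1 are too small to set apart from these shares. Ddr1, a collagen-binding receptor tyrosine kinase of epithelia, was at 6.80 in N against 12.7 in B and 26.1 in S, and was the gene higher in S than in N. Adgrg1, an adhesion receptor that binds collagen III and was named after its values were seen, was at 3.68, 7.93 and 1.79, and was the gene lower in S than in B. The integrin chains that pair into the collagen receptor of keratinocytes were at 5.98, 5.69 and 3.16 (Itga2) and at 31.7, 32.0 and 23.3 (Itgb1). Of 18 genes for proteins that bind collagen in the matrix, 11 passed the filter. In B against N, 6 were higher and 1 lower, against 7.27% and 7.10% of all genes (median 1.17 beside -0.04). In S against N, 3 were higher and 3 lower, against 9.56% and 10.9% (median 0.52 beside 0.02). In S against B, 1 was higher and 3 were lower, against 3.89% and 5.93% (median -0.66 beside 0.06). Postn, which encodes periostin, was at 23.6 in N, at 654 in B and at 657 in S. Ecm1 was at 14.7, 144 and 155, so both were higher in each bulge library. Fn1, the fibronectin gene, was at 2.31, 1.90 and 20.7, highest in S.

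**Figure D5:**
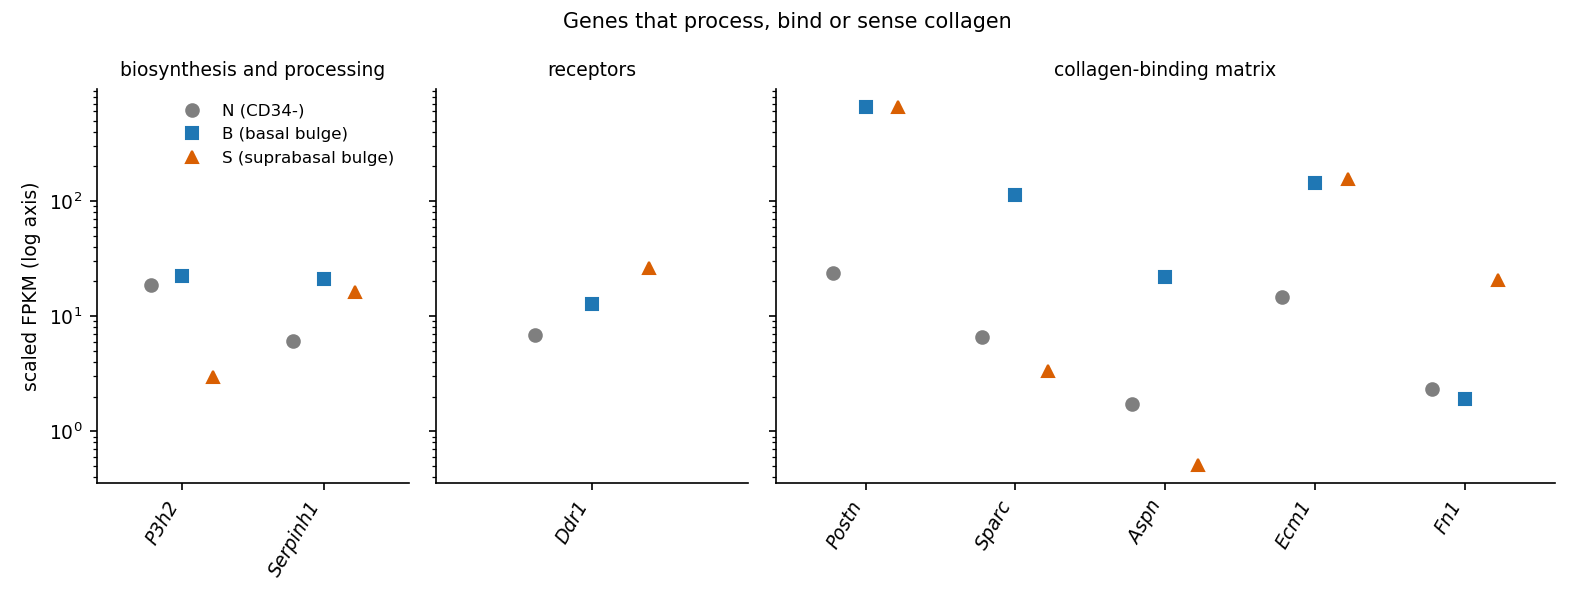
Level in scaled FPKM (log axis) of the genes for collagen processing, collagen receptors and collagen-binding matrix proteins that passed the 2-fold rule in a comparison with a mean of at least 5, in N (circles), B (squares) and S (triangles). Sparc and Aspn are highest in B (112 and 22.0) and Fn1 in S (20.7), while Postn and Ecm1 are high in both bulge libraries.

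Among the 44 genes, 15 lay within 150 kb of another collagen chain gene, in 8 pairs. Col6a1 and Col6a2 lie on the same strand, 85.2 kb apart, and both were higher in the bulge libraries. Col5a2 and Col3a1 lie tail to tail, 24.6 kb apart, and Col5a2 was at 4.59 in B where Col3a1 was at 0.0331. Col9a1 and Col19a1 lie tail to tail as well, 9.21 kb apart, and each was above 0 in 1 library only, Col9a1 in B (0.418) and Col19a1 in N (0.0848). The starts of Col4a5 and Col4a6 are 1309 bases apart, those of Col4a3 and Col4a4 72 and those of Col4a1 and Col4a2 21.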

How the data were processed

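The data are 3 libraries of sorted mouse epidermis, each from the pooled RNA of 4 mice, amplified from poly(T) and random primers and sequenced as paired reads of 75 bases, per the labels' protocols. The authors deposited FPKM values for 49452 genes per library. FPKM is the unit in the file headers of N and S, while the B column is headed by its population and was read as FPKM from its values. Per the submitters' processing notes, Cufflinks 2.1.1, TopHat2 2.0.12 and DESeq2 and the mouse build mm10 were used, without a stated role. The annotation is not given in the sources used here.

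Symbols came from a gene name table and, for 86 rows, GENCODE M21; 257 rows without a symbol were left out, and rows of 1 symbol were summed. Of the 44 genes, 43 had the same position in GENCODE M21. Libraries were scaled by the median of ratios, taken from the 18559 genes detected in each of them, with factors 1.10 (N), 0.981 (B) and 0.923 (S). The filter asked for a mean scaled FPKM of 1 or more. Ratios are log2 of scaled FPKM plus a pseudocount of 1, which understates differences of low genes, and folds are plain ratios of scaled FPKM.

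Depth came from the steps in low values of single-exon genes of 3000 bases or longer. For genes under 10 fragments, 90.3% to 93.6% of values were whole to within 0.1. The depth was chosen to fit these same values, so the 20.0% given by chance at a depth fixed beforehand is no test of it. Fragments per gene are approximate, since they use the longest annotated transcript, and exact Poisson (95%) intervals cover counting error only, with amplified fragments not being independent molecules. The scaling and the 2-fold rule were tested on simulated data with known folds. The folds were placed only in genes well above the floor in N, with counting noise alone. That simulation therefore did not cover genes as low in N as Col6a2, Col8a2 and Col5a2, or noise from amplification. Reads carry no stated strand, so overlapping genes cannot be told apart. Scripts used Python 3.11.15, numpy 2.4.6, pandas 2.3.3, scipy 1.17.1 and matplotlib 3.10.9.

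Named are all collagen chain genes with at least 1 scaled FPKM in 1 library and, of the other lists, up to 6 genes past the rule with a mean of at least 5. Other genes of these lists were named after their values were seen. The members and lists were chosen with earlier results of these data known. Alternatives were other scalings, pseudocounts and filters.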

Additional observations from a re-analysis of the deposited data

How the results depend on the processing

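No paired analysis was possible because each group had 1 library. None of the called ratios of the collagen chain genes changed sign under the 7 other scalings and pseudocounts. The calls of Col6a1, Col6a2 and Col8a2 against N, of Col12a1 in B against N and S, and of Col16a1 and Col18a1 in S against N held under all 7. With a pseudocount of 5, 4 genes were higher in B than in N and 0 lower, 1 was lower in S than in N, and 0 were higher and 1 lower in S than in B. The shares of all genes fell as well, to 2.66% higher and 3.02% lower in B against N. They were 3.86% and 4.80% in S against N, and 1.64% and 2.39% in S against B. With each library scaled to the same total, 7 were lower in S than in N, and 0 were higher and 15 lower in S than in B. A single gene, the mitochondrial tRNA mt-Tl1, held 71.1% of the total in S, and that scaling moved the median log2 ratio of all genes to -1.41 in S against N and -1.54 in S against B. With the same upper quartile, 0 were higher in S than in B. Other shifts of that median by over 0.1 were to -0.18 in both comparisons with N for values as deposited, to 0.08 in B against N for the same total of protein-coding genes, and to 0.11 (same total, B against N), 0.16 (upper quartile, B against N), -0.09 (upper quartile, S against N) and -0.26 (upper quartile, S against B). Without the filter, 2 were higher in S than in B, Col9a3 being added. With a mean of at least 5, which leaves 5 of the genes, 2 were higher and 0 lower in B than in N, 2 higher and 1 lower in S than in N, and 0 higher and 2 lower in S than in B. Of all 5860 genes past that filter, 6.37% were higher and 7.15% lower in B against N. The shares were 9.32% and 10.4% in S against N, and 4.08% and 5.82% in S against B. The other alternatives kept the counts within 1.5 times. Depth limits ratios against N for Col6a2, Col8a2 and Col5a2, which rest on 8 fragments or fewer there.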
